A study of Mus musculus with 25 samples.

Results

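Ceapin-A7, a small molecule described in the series as an inhibitor of the endoplasmic reticulum (ER) stress sensor ATF6, was injected into the eyes of mice, and the retinal transcriptome was compared with that of vehicle-injected retinas. The comparison used 10 of the 25 libraries of the series, 5 from Ceapin-A7 retinas and 5 from the second of 2 vehicle sets, called vehicle 2 here. The libraries were chosen by their labels, because both tables list the same 19102 genes. All mice were wild-type C57BL/6J animals injected into the vitreous at postnatal day 30 with 1 µL. Ceapin-A7 was given at 10 µM. The label gives PBS as the vehicle, but per the protocol the eyes received saline holding 0.05 to 0.1% dimethyl sulfoxide, in which the compound was also dissolved. The Ceapin-A7 columns carry a time of 24 h and the vehicle columns carry no time, while the series names collection at 24 h, 3 days and 7 days. Compound and time can therefore not be told apart if the vehicle retinas were collected later. Both eyes of a mouse were injected and the labels do not tie libraries to mice, so the p-values reflect variation among libraries that need not be variation among animals. Retinas given tunicamycin at 10 µM, labelled 24 h, served as the reference for a strong ER stress response (5 libraries).

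ATF6 is a membrane protein of the ER. When unfolded proteins accumulate it travels to the Golgi, where the site-1 and site-2 proteases, encoded by Mbtps1 and Mbtps2, release its cytosolic part as a transcription factor. That factor acts with NF-Y and YY1 on ER stress elements in the promoters of chaperone genes. Ceapins hold ATF6 alpha in the ER by tying it to the peroxisomal membrane protein ABCD3, so that it is not cleaved. Tunicamycin blocks N-glycosylation and activates ATF6 together with the other sensors, IRE1 (Ern1) and PERK (Eif2ak3).

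The ATF6 targets were taken as a list of 18 ER chaperones and quality control genes. The promoters of several carry the element through which ATF6 acts, CCAAT and CCACG separated by 9 bases. It was found on either strand in the 250 bases before the start of 8 of the 16 listed genes with a RefSeq promoter window, and in 0.113% of all 32851 windows. The shorter element known as ERSE-II was found in 1 of the 16 and in 0.0304% of all windows. The TGACGTGG and TGACGTCA motifs were found in none of the 16, against 0.563% and 1.55% of all windows. A match describes the letters only, and no binding was measured. The promoter of Hspa5, which encodes the main ER chaperone BiP, is shown whole because Hspa5 is the reference gene of the results that follow. 4 further elements are shown from genes that passed the test for tunicamycin. Capitals mark the element, and sequences are from RefSeq on GRCm38.p6, an earlier build than that of the expression tables.

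Hspa5: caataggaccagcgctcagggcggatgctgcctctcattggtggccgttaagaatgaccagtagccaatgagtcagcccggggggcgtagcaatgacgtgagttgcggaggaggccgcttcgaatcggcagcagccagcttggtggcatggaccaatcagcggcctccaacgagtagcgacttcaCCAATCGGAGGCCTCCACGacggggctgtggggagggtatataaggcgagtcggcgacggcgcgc

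Hsp90b1: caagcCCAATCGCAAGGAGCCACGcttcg

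Pdia6: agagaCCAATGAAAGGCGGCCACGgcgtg

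Creld2: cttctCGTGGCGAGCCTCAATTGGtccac

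Herpud1: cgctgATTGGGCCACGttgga

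The Hspa5 window is chr2:34771840-34772089 on the plus strand, and its element begins 65 bases before the start. The stretches shown hold the element and 5 bases on each side. That of Hsp90b1 lies at chr10:86705633-86705661, read on the minus strand of that gene, and a further copy lies nearer the start. That of Pdia6 lies at chr12:17266486-17266514 and that of Creld2, with the element in reverse, at chr15:88819515-88819543. That of Herpud1 holds the ERSE-II form, at chr8:94386372-94386392.

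Depth, estimated from the steps between low FPKM values, was 15.2 to 23.2 M fragments per library, the lowest being Ceapin-A7 library 3. For a transcript of 2 kb, 1 FPKM was then worth about 45.1 fragments in a library of median depth. Gnat1, the rod transducin subunit that marks rod-rich retina, ranged from 3841 to 5884 FPKM over the 10 libraries. Vehicle libraries 4 and 5 stood apart from vehicle libraries 1 to 3 in PERK-ATF4 targets, respiratory chain and rod genes, and library 4 alone did in reactive gliosis genes. The labels do not set libraries 4 and 5 apart, and they were left out together because of their values. In lists where both stood apart, that step moves estimates toward 0 by construction and is no independent check. The median SD per gene was 0.111 in vehicle 2 and 0.0754 in Ceapin-A7 on the log2(FPKM + 1) scale, and 0.0837 in vehicle libraries 1 to 3. Y-linked genes were at 1 FPKM or more in vehicle library 5, in Ceapin-A7 libraries 1 to 3 and in all 5 tunicamycin libraries, so male retinas were not spread evenly over the groups. Tunicamycin library 3 was the lowest of its group for each of them. It had 9.84 FPKM of Ddx3y against 13.6 to 17.0, and 4.49 FPKM of Kdm5d against 6.91 to 8.73. The cause was not tested. Lens crystallin RNA varied widely, with Cryaa at 2.92 to 2422 FPKM in vehicle 2 and at 28.7 to 3973 FPKM in Ceapin-A7.

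No gene passed the test between Ceapin-A7 and vehicle 2. Of 12754 genes with at least 1 FPKM in 5 or more libraries, 0 (0%) reached an adjusted p under 0.05 by limma with Benjamini-Hochberg adjustment, and the smallest adjusted p was 0.456. By limma, 1380 genes had an unadjusted p under 0.05, 796 of them higher (6.24% of those tested) and 584 lower (4.58%) in Ceapin-A7. This surplus of higher genes depended on the scaling and the fit, with 715 higher and 718 lower under median ratios, 686 and 731 under quantile normalization, 537 and 555 with tunicamycin also in the fit, and 717 and 870 with all 5 groups in it. When vehicle libraries 4 and 5 were left out, 0 genes passed, the smallest adjusted p was 0.885, and 669 genes had an unadjusted p under 0.05, 482 higher (3.8%) and 187 lower (1.48%). All 5 libraries of one group lay beyond all 5 of the other for 126 genes higher in Ceapin-A7 (0.988%) and 61 lower (0.478%). The median difference over all genes was 0.00 (log2).

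The intervals describe how precisely differences between these libraries were estimated, and are no bound on an effect of the compound. They take the libraries as independent, and the log2(FPKM + 1) scale narrows those of low genes. Sex was uneven between the groups, and the vehicle columns carry no time. The 95% interval of the difference lay within ±0.5 (log2) for 93.7% of the tested genes and within ±1 for 98.5%, with a median half-width of 0.14. The estimate itself exceeded 1 in either direction for 26 genes. These included genes of melanocytes (Mlana, Pmel, Dct), lens (Cryaa, Crybb2) and connective tissue (Dcn, Fbln1), which were higher in Ceapin-A7, and stress or glial genes (Atf3, Nes, Cebpd), which were lower. In bulk retina, fewer cells of a type and less RNA per cell cannot be told apart.

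Hspa5 differed between Ceapin-A7 and vehicle retinas by less than the spread between libraries. Its FPKM in vehicle libraries 1 to 5 was 110.2, 109.9, 106.4, 138.0 and 161.9, and in Ceapin-A7 libraries 1 to 5 it was 105.8, 112.5, 131.6, 109.9 and 117.3. The groups overlapped, and the 2 highest values belonged to vehicle libraries 4 and 5. The difference was -0.10 ± 0.11 (log2, SE), with a 95% interval of -0.34 to 0.14. Without those 2 vehicle libraries it was 0.08, on the other side of 0. In the tunicamycin libraries Hspa5 lay at 1513, 494.7, 229.0, 580.8 and 427.3 FPKM, above all 10 others.

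The estimates for the other ER chaperones and co-chaperones were also small. Sdf2l1, a component of a BiP co-chaperone complex, had 8.37, 7.65, 6.21, 8.68 and 8.72 FPKM in vehicle 2 and 6.64, 7.09, 9.61, 7.81 and 6.25 FPKM in Ceapin-A7. The highest and the second lowest of these 10 values were both from Ceapin-A7 libraries, and the difference was -0.08 ± 0.11 (log2, SE; 95% interval -0.32 to 0.16). Hyou1, the large ER chaperone that exchanges nucleotide on BiP, had 23.9, 22.4, 23.7, 28.9 and 28.0 FPKM in vehicle 2 and 22.8 to 24.5 FPKM in Ceapin-A7. Ceapin-A7 thus lay within the vehicle range, and only vehicle libraries 4 and 5 were above it. Hsp90b1, the ER HSP90, differed by -0.07 ± 0.04. Calr and Pdia4 differed by -0.06 and -0.04, Dnajc3 and Dnajb11 by -0.05 and -0.01, and the secreted factors Manf and Creld2 by -0.04 and -0.08.

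Of the 18 listed ATF6 targets, 17 passed the filter on low values, and 1 of these had an unadjusted p under 0.05 by limma, against 4.58% of all genes in that direction. It was Pdia6, a disulfide isomerase, with 59.3, 53.8, 50.3, 56.6 and 59.2 FPKM in vehicle 2 and 48.1, 49.7, 53.4, 53.2 and 50.1 FPKM in Ceapin-A7. The groups overlapped at 50.3 to 53.4 FPKM, and the difference was -0.13 ± 0.05 (unadjusted p = 0.0283, adjusted p = 0.456 by limma), or -0.09 without vehicle libraries 4 and 5. The estimates were below 0 for 16 of the 17 genes, with a median of -0.07 beside 0.00 over all genes. Without vehicle libraries 4 and 5, 8 of the 17 were below 0, the median was 0.00 and 0 genes had an unadjusted p under 0.05 by limma. That median was the highest over the 24 alternatives with vehicle 2, and the lowest was -0.11, with Y-linked expression as a covariate. Over these alternatives 0 to 3 genes were lower at that p and 0 to 1 higher. The lowest bound of any 95% interval in the list was -0.39, for Xbp1, so no tested target had an interval that reached -0.5.

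The genes of ER-associated degradation within that list followed the same course. Sel1l, the scaffold of the HRD1 ubiquitin ligase, had 24.8 to 28.8 FPKM in vehicle 2 and 23.9 to 24.7 FPKM in Ceapin-A7 and was the single listed target whose groups did not overlap (0.478% of all genes did so in this direction). Its difference was -0.10 ± 0.04, and -0.04 without vehicle libraries 4 and 5. Syvn1, the ligase itself, differed by -0.13 ± 0.08, Edem1 by -0.11 ± 0.07 and Herpud1 by -0.07 ± 0.09. Selenos was the single estimate above 0, at 0.15 ± 0.07 (95% interval 0.00 to 0.30), and at 0.05 without the 2 libraries. Derl3 did not pass the filter and had 0.74 to 1.48 FPKM in vehicle 2 and 0.54 to 0.87 FPKM in Ceapin-A7, against 5.19 to 73.4 FPKM in tunicamycin.

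**Figure D1:**
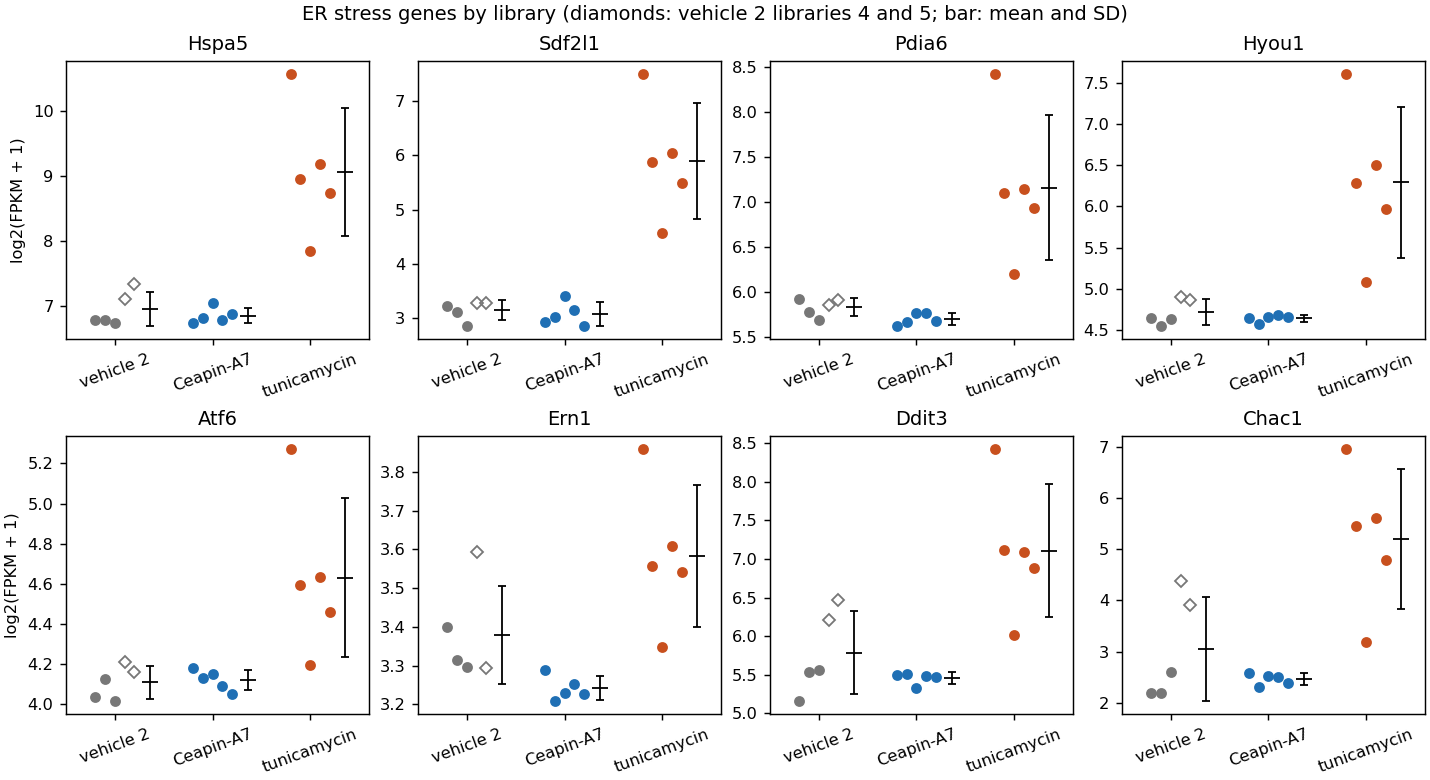
Level of 8 ER stress genes in each library as log2(FPKM + 1), in vehicle 2, Ceapin-A7 and tunicamycin retinas (5 libraries each), with the mean and SD as a bar beside the points. Ceapin-A7 libraries sit in or near the vehicle range, vehicle libraries 4 and 5 (diamonds) are the highest of the vehicle libraries for Ddit3 and Chac1, and tunicamycin libraries are spread over a wide range. They lie above all other libraries for Hspa5, Sdf2l1, Pdia6 and Hyou1, while tunicamycin library 3 lies below the highest vehicle library for Atf6, Ern1, Ddit3 and Chac1.

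The transcripts of the sensors and of the ATF6 processing machinery lay within 0.14 (log2) of vehicle 2, with 3 of 10 at an unadjusted p under 0.05 by limma, 1 higher and 2 lower, beside 6.24% and 4.58% of all genes. The count was 1, higher, without vehicle libraries 4 and 5. Atf6 itself had 15.4, 16.5, 15.2, 17.5 and 16.9 FPKM in vehicle 2 and 17.1, 16.5, 16.7, 16.0 and 15.6 FPKM in Ceapin-A7. The groups overlapped throughout, and the difference was 0.01 ± 0.05 with a 95% interval of -0.09 to 0.11. Its relative Atf6b differed by -0.06 ± 0.04, the proteases Mbtps1 and Mbtps2 by 0.08 ± 0.04 and -0.01 ± 0.05, and Eif2ak3 by -0.06 ± 0.05. Abcd3, the peroxisomal tether of the inhibited protein, had 20.2 to 23.0 FPKM in vehicle 2 and 20.4 to 22.7 FPKM in Ceapin-A7, a difference of 0.04 ± 0.05. Among 31 tested peroxisome genes, 2 had an unadjusted p under 0.05 by limma, both higher, beside 6.24% of all genes, and the median was 0.02. The count was 0 without vehicle libraries 4 and 5. It was 6 with Y-linked expression as a covariate, a fit in which 984 of 12754 genes were higher at that p. The ATF6 protein and its cleavage were not measured.

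Ern1, which encodes IRE1, was the sensor with no overlap between groups. It had 9.55, 8.95, 8.82, 11.1 and 8.81 FPKM in vehicle 2 and 8.77, 8.24, 8.38, 8.53 and 8.36 FPKM in Ceapin-A7, so the highest Ceapin-A7 value was just under the lowest vehicle value. The difference was -0.14 ± 0.06 (unadjusted p = 0.0386 by limma) and -0.10 without vehicle libraries 4 and 5. Nfyc, a subunit of NF-Y, differed by 0.14 ± 0.05 (unadjusted p = 0.00972) and Yy1 by -0.12 ± 0.04 (unadjusted p = 0.0219), each with an adjusted p of 0.456 by limma and with overlapping groups. They differed by 0.13 and -0.07 without vehicle libraries 4 and 5. The remaining NF-Y subunits, Nfya and Nfyb, differed by -0.03 and 0.04.

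**Figure D2:**
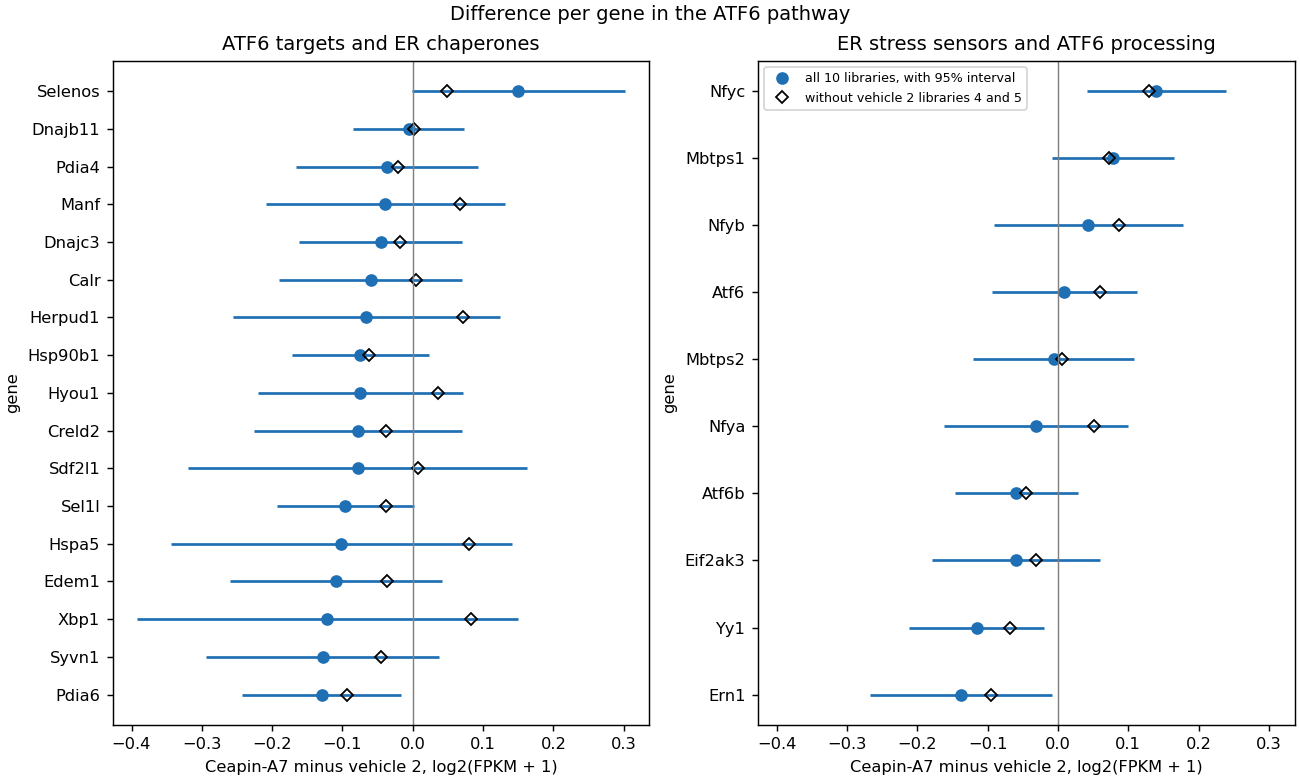
Difference between Ceapin-A7 and vehicle 2 for the 17 tested ATF6 targets (left) and 10 sensor and processing genes (right), in log2(FPKM + 1), with the 95% interval from limma on all 10 libraries. Open diamonds give the same difference without vehicle libraries 4 and 5, and they lie on the other side of 0 for Hspa5, Xbp1, Hyou1, Manf and Herpud1 among others.

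The same ATF6 targets separated Ceapin-A7 from tunicamycin retinas, in a comparison that shares the 5 Ceapin-A7 libraries with the one above. Of 12786 genes, 595 passed an adjusted p under 0.05 by limma with Benjamini-Hochberg adjustment, 428 higher in tunicamycin (3.35%) and 167 lower (1.31%). Scaling by median ratios gave 264 higher and 212 lower, and quantile normalization gave 238 and 207. Of the 17 ATF6 targets tested in both comparisons 12 rose and 0 fell, with a median of 1.37 (log2) beside 0.01 over all genes. Hspa5 rose by 2.2 ± 0.38 (SE, adjusted p = 0.0123 by limma) and Sdf2l1 by 2.82 (adjusted p = 0.00538). The remaining target, Derl3, rose by 3.75, but it passed the filter on low values only through the tunicamycin libraries and is left out of that count. Among the sensors Ern1 rose by 0.34 (adjusted p = 0.0374 by limma) and Atf6 lay 0.51 higher with an adjusted p of 0.0773. The 5 tunicamycin libraries were far apart from each other, library 1 being the highest and library 3 the lowest for Hspa5, Sdf2l1, Pdia6 and Hyou1.

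The number of calls between tunicamycin and Ceapin-A7 changed when single libraries were left out, more than the size of the differences did. Counting Derl3 where it was tested, 13 of 18 ATF6 targets passed with all libraries. Without any 1 Ceapin-A7 library, or without tunicamycin library 2 or 4, 127 to 211 genes and 2 to 5 ATF6 targets passed. Without tunicamycin library 5, 352 genes and 10 targets passed, and without tunicamycin library 3, 1870 genes and 17 of 17 targets did. Without tunicamycin library 1, the highest for Hspa5, 744 genes and 16 of 17 targets passed. When Y-linked expression entered the model as a covariate, 180 genes and 3 targets passed. Hspa5 and Sdf2l1 passed under each of the 16 alternatives run, with adjusted p-values by limma of up to 0.0477 and 0.0276. Of the 27 PERK-ATF4 targets tested in both comparisons 16 rose and 0 fell, beside 3.35% of all genes rising, among them Trib3 (2.41, adjusted p = 0.00698 by limma) and Ddit3 (1.65, adjusted p = 0.0247). With the members that passed the filter only here, 18 of 29 rose. That count was 5 to 9 without any 1 Ceapin-A7 library, 6 without tunicamycin library 2 or 4, 10 without tunicamycin library 5 and 5 with the Y-linked covariate. It was 28 of 28 without tunicamycin library 3 and 23 of 28 without tunicamycin library 1. Trib3 passed under all 16 alternatives, Ddit3 under 8 and Ern1 under 3. In the IRE1-XBP1 and translocation list 6 of 20 rose, in ER-associated degradation 3 of 18 and among disulfide isomerases and oxidases 3 of 15, with 0 falling in each. Without any 1 Ceapin-A7 library, with the replicate block or with the Y-linked covariate, these counts were 1, 0 and 1. Without tunicamycin library 3 they were 17, 5 and 7, and without tunicamycin library 1 they were 13, 4 and 5. Without tunicamycin library 2 they were 3, 0 and 1, without library 4 they were 1, 0 and 1, and without library 5 they were 4, 0 and 1. These 3 lists and the PERK-ATF4 list had 0 genes passing between Ceapin-A7 and vehicle 2.

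The PERK-ATF4 arm, which raises amino acid synthesis, transport and the CHOP gene Ddit3, had a median below that of vehicle 2 with all libraries and at 0.00 once vehicle libraries 4 and 5 were left out. Chac1, an enzyme that degrades glutathione, had 3.54, 3.57, 5.09, 19.7 and 13.9 FPKM in vehicle 2 and 5.0, 3.95, 4.75, 4.69 and 4.2 FPKM in Ceapin-A7. The first 3 vehicle libraries spanned the Ceapin-A7 values, and the other 2 were far above them. Ddit3 showed the same, with 34.7, 45.6, 46.4, 73.0 and 87.3 FPKM in vehicle 2 and 39.3 to 44.5 FPKM in Ceapin-A7. Over the 27 tested targets the estimates were below 0 for all 27, the median was -0.33 and 3 had an unadjusted p under 0.05 by limma, all lower, beside 4.58% of all genes. Without vehicle libraries 4 and 5 the median was 0.00, with 13 of 26 below 0 and 1 gene at an unadjusted p under 0.05 in each direction. The 3 lower genes became 9, 15 and 10 without vehicle library 1, 2 or 3, 1 without vehicle library 4 or 5, and 10 with Y-linked expression as a covariate. Over all tested genes, 565, 1197 and 971 were lower at that p without vehicle library 1, 2 or 3. That number was 289 and 357 without vehicle library 4 or 5 and 777 with the covariate, beside 584 with all libraries. Atf3, a stress-induced transcription factor, was below vehicle with and without libraries 4 and 5, by -1.17 ± 0.41 and by -0.41, with unadjusted p-values by limma of 0.0154 and 0.0306.

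Other arms of protein quality control had medians close to 0. The IRE1-XBP1 and translocation list had 4 of 20 genes at an unadjusted p under 0.05 by limma, 3 higher and 1 lower, with a median of 0.00. ER-associated degradation genes beyond the ATF6 list had 0 of 18 at an unadjusted p under 0.05 by limma and a median of -0.01. The disulfide isomerases and oxidases had 1 of 15, the N-glycosylation genes 2 of 27, the vesicle coat genes of the COPII and COPI lists 2 of 26 and the cytosolic heat shock genes 1 of 18, with medians between -0.01 and 0.02, beside 6.24% of all genes higher and 4.58% lower. Without vehicle libraries 4 and 5 the IRE1-XBP1 list had 3 at that p, all higher, the heat shock genes 3, all higher, ER-associated degradation 1, lower, and the other 3 lists 0. Over the 24 alternatives with vehicle 2, none of these 6 lists had more than 5 members at that p in either direction. The highest expressed members were also close to vehicle, with Pdia3 at -0.04 ± 0.05, Vcp at 0.05 ± 0.03, Ssr2 at 0.06 ± 0.05, Tmed2 at 0.03 ± 0.04 and Hsp90aa1 at 0.01 ± 0.05. Ost4, a subunit of the oligosaccharyltransferase, was 0.14 ± 0.05 higher with no overlap between groups (unadjusted p = 0.013, adjusted p = 0.456 by limma), and 0.07 higher without vehicle libraries 4 and 5 (unadjusted p = 0.0603 by limma).

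Genes of sterol and fatty acid synthesis had estimates below 0 for 26 of 30 members, and for 25 of 30 without the 2 vehicle libraries, though 0 genes of the list passed. These genes are driven by SREBP factors, which the same site-1 and site-2 proteases release in the Golgi. Release of SREBP was not measured, and a link between it and these estimates was not tested. Hmgcs1, which makes the precursor of mevalonate, had 56.5, 63.2, 61.0, 63.8 and 62.5 FPKM in vehicle 2 and 55.4, 53.5, 52.3, 53.8 and 55.4 FPKM in Ceapin-A7. Each Ceapin-A7 value was below each vehicle value, by a difference of -0.18 ± 0.04 (unadjusted p = 0.000831, adjusted p = 0.456 by limma). Sc5d, a desaturase of late cholesterol synthesis, had 22.7, 24.1, 23.0, 25.2 and 25.3 FPKM in vehicle 2 and 21.9, 22.0, 20.95, 21.6 and 21.0 FPKM in Ceapin-A7. Here too the groups did not overlap, vehicle libraries 4 and 5 were the highest, and the difference was -0.16 ± 0.04 with all libraries and -0.11 without vehicle libraries 4 and 5. Scd2, a stearoyl-CoA desaturase and the most abundant gene of the list, had 119.4 to 132.5 FPKM in vehicle 2 and 101.3 to 116.3 FPKM in Ceapin-A7, a difference of -0.18 ± 0.05 without overlap.

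Across the list, 10 of 30 tested genes had an unadjusted p under 0.05 by limma, all lower, beside 4.58% of all genes in that direction, and groups did not overlap for 4, beside 0.478%. The 10, with differences of -0.28 to -0.10, included Hmgcs1, Msmo1, Scd2, Sc5d, Sqle, Cyp51, Fdft1, Pmvk and Idi1. Msmo1, a sterol demethylase, differed by -0.25 ± 0.06, with vehicle 2 at 38.1 to 47.5 FPKM and Ceapin-A7 at 34.4 to 39.1 FPKM. Leaving out vehicle libraries 4 and 5, 10 of 30 were again lower at an unadjusted p under 0.05 beside 1.48% of all genes, and 7 genes were in both sets of 10. The list median was -0.07 with all libraries and -0.10 without them, and ranged from -0.10 to -0.04 over the 24 alternatives with vehicle 2, with 7 to 12 genes lower at that p. Insig1 differed by -0.03 ± 0.07 and the regulator Srebf2 by -0.05 ± 0.05. In tunicamycin, Hmgcs1 and Scd2 differed from Ceapin-A7 by a further -0.21 and -0.17 (log2) and Sc5d by 0.09, and none of them passed, with adjusted p-values by limma of 0.148, 0.151 and 0.246.

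**Figure D3:**
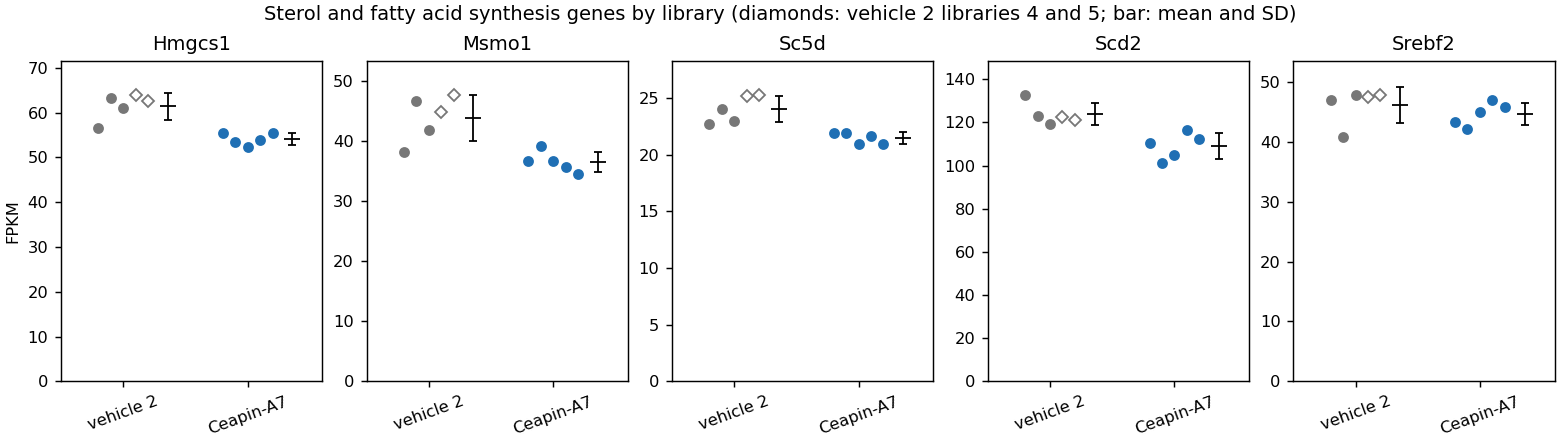
FPKM of Hmgcs1, Msmo1, Sc5d, Scd2 and Srebf2 in each library of vehicle 2 and Ceapin-A7 (5 libraries each), on axes that start at 0, with the mean and SD as a bar. Hmgcs1, Sc5d and Scd2 have no overlap between groups. Vehicle libraries 4 and 5 (diamonds) lie above the other vehicle libraries for Sc5d.

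Genes of mitochondrial respiration and of the proteasome had estimates above 0 for 33 of 33 and 30 of 31 members, again with 0 genes passing. Of 33 nuclear genes of the respiratory chain, 20 had an unadjusted p under 0.05 by limma, all higher, beside 6.24% of all genes, and the median was 0.15. Cox4i1, a subunit of cytochrome c oxidase, had 488.7, 480.1, 518.8, 437.0 and 469.6 FPKM in vehicle 2 and 528.8, 554.7, 559.9, 554.1 and 562.2 FPKM in Ceapin-A7. The groups did not overlap, and the difference was 0.21 ± 0.05, or 0.15 without vehicle libraries 4 and 5. Ndufa5, a complex I subunit, had 104.3 to 148.4 FPKM in vehicle 2 and 153.6 to 169.3 FPKM in Ceapin-A7, a difference of 0.34 ± 0.08, or 0.26 without those libraries. Without the 2 libraries 6 of 33 had an unadjusted p under 0.05 beside 3.8% of all genes, all 6 among the 20, and the median was 0.08. Each of the 33 estimates was closer to 0 without them. The list means of these 2 libraries, 7.01 and 7.05, were the lowest of vehicle 2, so a move toward 0 was built in. Leaving out single libraries gave 12 and 13 genes without vehicle library 4 or 5, and 13 each without Ceapin-A7 library 3 or 4. The count was 13 under quantile normalization, with a median of 0.11, and 8 when the tunicamycin libraries also entered the fit. Over all tested genes, 538 and 659 were higher at that p without vehicle library 4 or 5. That number was 577 and 582 without Ceapin-A7 library 3 or 4, 686 under quantile normalization and 537 with tunicamycin in the fit.

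Of 31 proteasome subunit genes 11 were higher at an unadjusted p under 0.05 by limma, beside 6.24% of all genes, with a median of 0.09. Without the 2 vehicle libraries 7 were, 6 of them in common, with a median of 0.07. Without vehicle library 1 or Ceapin-A7 library 4 the count was 6, and without vehicle library 4 or Ceapin-A7 library 2 it was 7. It was also 7 under quantile normalization, without the intensity trend or with all 5 groups in the fit, and 5 with tunicamycin in the fit. Over all tested genes, 733 were higher at that p without vehicle library 1 and 538 without vehicle library 4. That number was 608 and 582 without Ceapin-A7 library 2 or 4, and 537 with tunicamycin in the fit. Psmc3, an ATPase of the regulatory particle, had 71.5, 78.6, 77.5, 72.9 and 75.0 FPKM in vehicle 2 and 79.98, 86.9, 84.6, 86.5 and 80.5 FPKM in Ceapin-A7, with no overlap and a difference of 0.15 ± 0.04, or 0.14 without vehicle libraries 4 and 5. Psmb7, the highest expressed subunit, differed by 0.20 ± 0.06. Cytosolic ribosomal protein genes had 2 of 38 at that p, both higher, and glycolysis genes 4 of 19, 1 higher and 3 lower. These were 2 and 1 without vehicle libraries 4 and 5. The ribosomal count was 7 without vehicle library 2, a fit in which 1085 of 12721 genes were higher at that p. Gapdh differed by 0.04 ± 0.07.

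Reactive gliosis genes, which Muller glia raise after injury, had estimates below 0 for 18 of 19 members, with a median of -0.75 and 0 passing. At an unadjusted p under 0.05 by limma 8 of 19 were lower, beside 4.58% of all genes. Without vehicle libraries 4 and 5, 0 of 19 were, beside 1.48%, and the median was -0.30, still with 18 of 19 below 0. Without vehicle library 3 alone the count was 13, without vehicle library 4 or 5 it was 4, and without Ceapin-A7 library 1 or 2 it was 2 or 5. It was 4 with the robust prior. Over all tested genes, 971 were lower at that p without vehicle library 3, and 289 and 357 without vehicle library 4 or 5. That number was 390 and 384 without Ceapin-A7 library 1 or 2, and 550 with the robust prior. Gfap, the intermediate filament of reactive glia, had 31.3, 29.8, 17.2, 40.7 and 41.7 FPKM in vehicle 2 and 9.31, 15.4, 27.0, 25.3 and 17.6 FPKM in Ceapin-A7. The groups overlapped, with vehicle libraries 4 and 5 the highest of the 10, and the difference was -0.76, or -0.49 without them. Glul, the glutamine synthetase of Muller glia, lay on the other side of 0, with 665.6, 624.1, 1024, 254.0 and 330.2 FPKM in vehicle 2 and 847.6 to 1014 FPKM in Ceapin-A7. Its lowest 2 values were those of vehicle libraries 4 and 5, and the difference was 0.84 ± 0.31, or 0.30 without them. Glul had the highest estimate of the 17 tested Muller glia genes, of which 10 were above 0 and 7 below, with a median of 0.06 and a minimum of -0.70. At an unadjusted p under 0.05 by limma 2 of the 17 were higher and 1 lower, beside 6.24% and 4.58% of all genes. Without vehicle libraries 4 and 5, 0 were higher and 1 lower.

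Immediate early genes, which respond within minutes to light, handling and injury, had estimates below 0 for 13 of 16 members, with a median of -0.33 and 0 passing. At an unadjusted p under 0.05 by limma 8 of 16 were lower, beside 4.58% of all genes. Fos had 26.1, 14.1, 22.8, 22.9 and 30.3 FPKM in vehicle 2 and 11.97, 15.1, 14.2, 17.4 and 14.7 FPKM in Ceapin-A7. Vehicle library 2 lay inside the Ceapin-A7 range and the other 4 above it, and the difference was -0.60 ± 0.16 (unadjusted p = 0.00341, adjusted p = 0.456 by limma), or -0.46 without vehicle libraries 4 and 5. Egr1 had 16.9 to 40.4 FPKM in vehicle 2 and 10.2 to 22.6 FPKM in Ceapin-A7, a difference of -0.57 ± 0.24, or -0.71 without them. Without vehicle libraries 4 and 5, 5 of 16 were lower at an unadjusted p under 0.05 beside 1.48% of all genes, 4 of them in common, with a median of -0.09. Without vehicle library 4 or 5 alone the counts were 4 and 5, and without Ceapin-A7 library 1, 2 or 5 they were 3, 5 and 4. The count was 5 with the robust prior. Over all tested genes, 289 and 357 were lower at that p without vehicle library 4 or 5. That number was 390, 384 and 407 without Ceapin-A7 library 1, 2 or 5, and 550 with the robust prior. Btg2, the highest expressed member, differed by -0.19 ± 0.07 and by -0.08 without vehicle libraries 4 and 5. The time of day and the interval from death to freezing are not given in the sources used here.

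**Figure D4:**
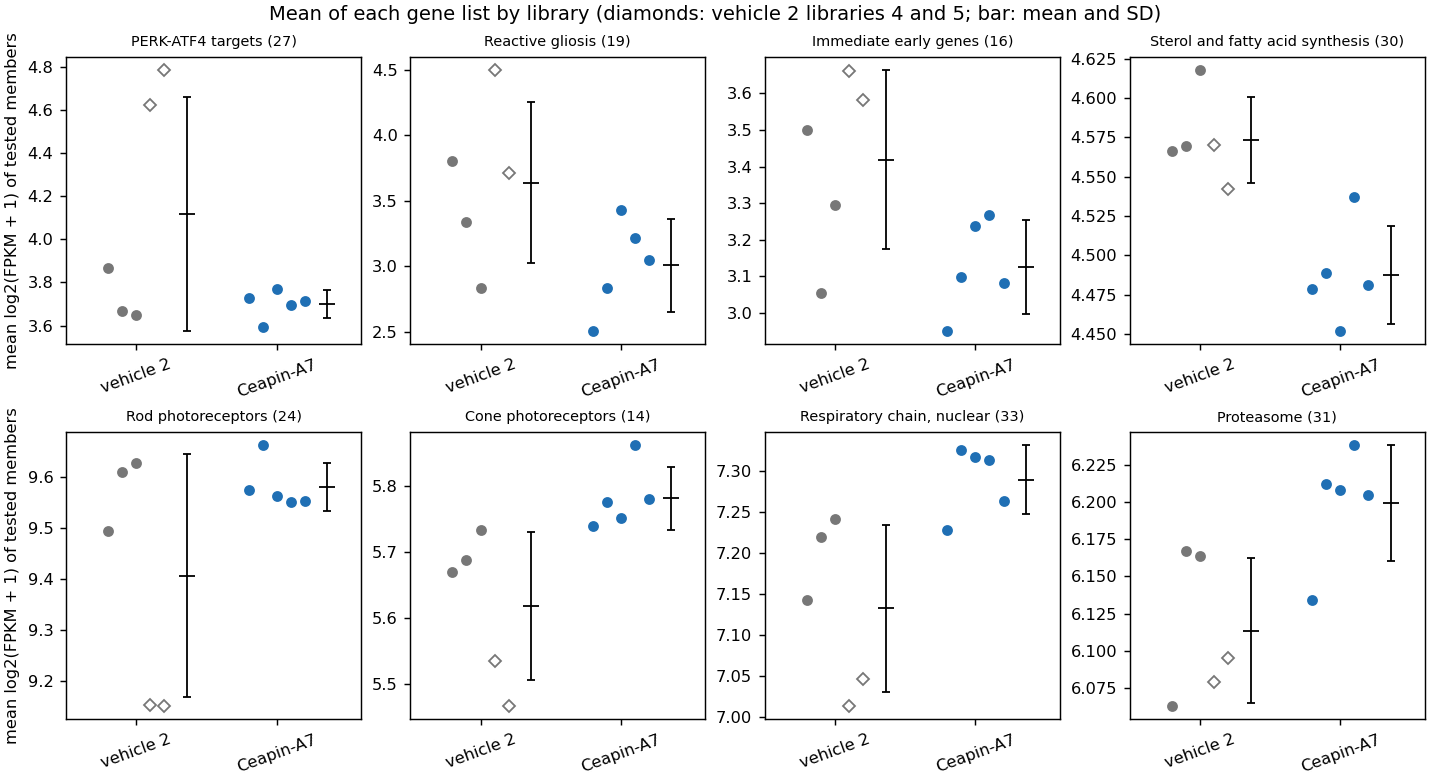
Mean log2(FPKM + 1) of the tested members of 8 gene lists (number of genes in brackets) in each library of vehicle 2 and Ceapin-A7, with the mean and SD as a bar. Vehicle libraries 4 and 5 (diamonds) are the highest for PERK-ATF4 targets and the lowest for rods, cones and the respiratory chain, whereas for sterol and fatty acid synthesis they lie at 4.57 and 4.54, near the 4.57 to 4.62 of the other vehicle libraries.

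Rod genes followed vehicle libraries 4 and 5 in the same way, and cone genes did so in part. Gnat1 differed by 0.16 ± 0.12 and by -0.04 without vehicle libraries 4 and 5, which had 3947 and 3841 FPKM against 5234 to 5884 FPKM in vehicle libraries 1 to 3. Of 24 rod genes 4 had an unadjusted p under 0.05 by limma, all higher, beside 6.24% of all genes, with a median of 0.16, and without the 2 libraries 0 did, with a median of 0.00. The count was 11 or 12 without vehicle library 2 or 3, 0 without vehicle library 4 or 5, and 1 or 2 without Ceapin-A7 library 1, 2, 3 or 4. Under quantile normalization it was 1, with a median of 0.06, under median ratios 2, and with all 5 groups in the fit 11. Over all tested genes, 1085 and 967 were higher at that p without vehicle library 2 or 3. That number was 538 and 659 without vehicle library 4 or 5, and 717 with all 5 groups in the fit. Of 14 cone genes 7 had such a p, all higher, with a median of 0.17, and without the 2 libraries 2 did, beside 3.8% of all genes, with a median of 0.09. Estimates were above 0 for 13 of 14 cone genes with all libraries and for 12 of 14 without the 2. With tunicamycin in the fit 4 cone genes had such a p. The 2 in the fit without vehicle libraries 4 and 5 were Gngt2 and Arr3, the cone arrestin. Arr3 had 122.1, 115.5, 128.1, 132.9 and 140.2 FPKM in vehicle 2 and 137.4, 151.3, 140.1, 150.1 and 140.8 FPKM in Ceapin-A7, overlapping at vehicle library 5, and differed by 0.17 ± 0.05 and by 0.24 without vehicle libraries 4 and 5.

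Of the inner retinal neuron lists, ganglion cell genes had 0 of 18 at an unadjusted p under 0.05 by limma, amacrine cell genes 1 of 21, higher, horizontal cell genes 0 of 5 and bipolar cell genes 4 of 17, 2 in each direction, beside 6.24% of all genes higher and 4.58% lower. Without vehicle libraries 4 and 5, 3 of 18 ganglion cell genes were higher, beside 3.8% of all genes, and 16 of 18 estimates were above 0. When only vehicle library 5 was left out, 5 ganglion cell genes were higher at that p, beside 659 of 12719 genes. In the fit without both libraries 0 amacrine cell genes had such a p, with 17 of 21 estimates above 0, and 2 bipolar cell genes did, both lower. The neurofilament Nefl differed by 0.05 ± 0.08, Calb2 by 0.01 ± 0.08, Calb1 by 0.08 ± 0.09 and Gng13 by 0.10 ± 0.08. Endothelial genes had 1 of 19 at that p, and Slc2a1 differed by 0.05 ± 0.09. Microglial genes also had 1 of 19, P2ry12, a purine receptor of resting microglia. The microglial count was 5 of 18 without vehicle library 1, 7 and 4 of 18 without Ceapin-A7 library 1 or 2, 2 of 18 without vehicle libraries 4 and 5, and 6 of 19 with Y-linked expression as a covariate, all higher. Over all tested genes, 733 were higher at that p without vehicle library 1. That number was 785 and 608 without Ceapin-A7 library 1 or 2, and 984 with the covariate. P2ry12 had 0.62, 0.94, 1.39, 0.64 and 1.24 FPKM in vehicle 2 and 1.45, 1.5, 1.73, 1.58 and 1.85 FPKM in Ceapin-A7, without overlap, but at levels close to the filter. Defining genes of infiltrating leukocytes and of cornea did not pass the filter in any case.

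Genes of tissues next to the retina differed between single libraries. The melanocyte gene Mlana had 19.4, 0.68, 5.65, 6.75 and 4.37 FPKM in vehicle 2 and 21.9, 24.1, 81.9, 8.21 and 11.8 FPKM in Ceapin-A7. The groups overlapped, and the difference was 1.84 ± 0.66 (unadjusted p = 0.017, adjusted p = 0.456 by limma), or 1.87 without vehicle libraries 4 and 5. Ttr, made by the pigment epithelium, had 136.3, 167.3, 117.5, 93.7 and 81.9 FPKM in vehicle 2 and 91.2, 55.3, 29.3, 57.9 and 121.2 FPKM in Ceapin-A7, a difference of -0.85 ± 0.33 with overlap, or -1.11 without those 2 libraries, and fell by a further 2.17 in tunicamycin (adjusted p = 0.017 by limma, 0.0641 with Y-linked expression as a covariate). In the fit without vehicle libraries 4 and 5, Rpe65, Rdh5 and Rgr of the same epithelium were also lower at an unadjusted p under 0.05 by limma, by -1.21, -0.60 and -1.12. Of the 12 tested pigment epithelium and melanocyte genes, 4 were lower and 1 higher at that p in this fit, beside 1.48% and 3.8% of all genes. With all libraries 1 was lower and 4 were higher, beside 4.58% and 6.24%, and 7 of 12 estimates were above 0, with a median of 0.25. Ckm, a skeletal muscle enzyme, was at 27.8 FPKM in Ceapin-A7 library 4 and at 0.07 to 0.30 FPKM in the other 9. How much adjoining tissue each retina carried was not tested as a part of these differences.

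The genes with the smallest p-values in each direction are given as values, since all had an adjusted p of 0.456 by limma. Higher in Ceapin-A7 were Smim20, Ndufb4c, Mrps11, Timm10, Ppih, Shisal2b, Sil1, 2310039H08Rik, Ccdc91 and Tmem141. Smim20, which takes part in the assembly of cytochrome c oxidase, had 17.1 to 19.5 FPKM in vehicle 2 and 21.1 to 21.8 FPKM in Ceapin-A7, a difference of 0.20 ± 0.04. Mrps11, a mitochondrial ribosomal protein, differed by 0.22 ± 0.04, and Timm10, an import chaperone of the mitochondrial intermembrane space, by 0.34 ± 0.07. Ndufb4c differed by 0.33 ± 0.07 and is uncertain, since it is a near copy of the complex I gene Ndufb4 and reads may be split between them. Sil1, the nucleotide exchange factor of BiP, had 18.3 ± 0.743 FPKM (SD, n = 5) in Ceapin-A7 and 15.4 ± 0.991 FPKM (SD, n = 5) in vehicle 2, without overlap. It differed by 0.23 ± 0.05, and by 0.18 without vehicle libraries 4 and 5, and lay 0.00 from Ceapin-A7 in tunicamycin.

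Those lower in Ceapin-A7 included Pde10a, LOC118568644, Abhd2, Hmgcs1, Lin7a, Mef2b, Msmo1, Pxn and Klf16. Pde10a, a cyclic nucleotide phosphodiesterase, differed by -0.40 ± 0.08, and by -0.40 without vehicle libraries 4 and 5, and had 5.43 ± 0.533 FPKM in vehicle 2 and 3.86 ± 0.452 FPKM in Ceapin-A7 (SD, n = 5 each). Its unadjusted p of 0.000234 was the smallest of all genes by limma. Abhd2, a lipase, differed by -0.23 ± 0.05 and Pxn, the focal adhesion protein paxillin, by -0.24 ± 0.06. Of the 20 genes with the smallest p, 10 in each direction, 17 had no overlap between groups, beside 0.988% of all genes higher and 0.478% lower. These 20 were chosen by p from the same libraries, so the lack of overlap adds no support. Hmgcs1 and Msmo1 belong to the sterol list.

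**Figure D5:**
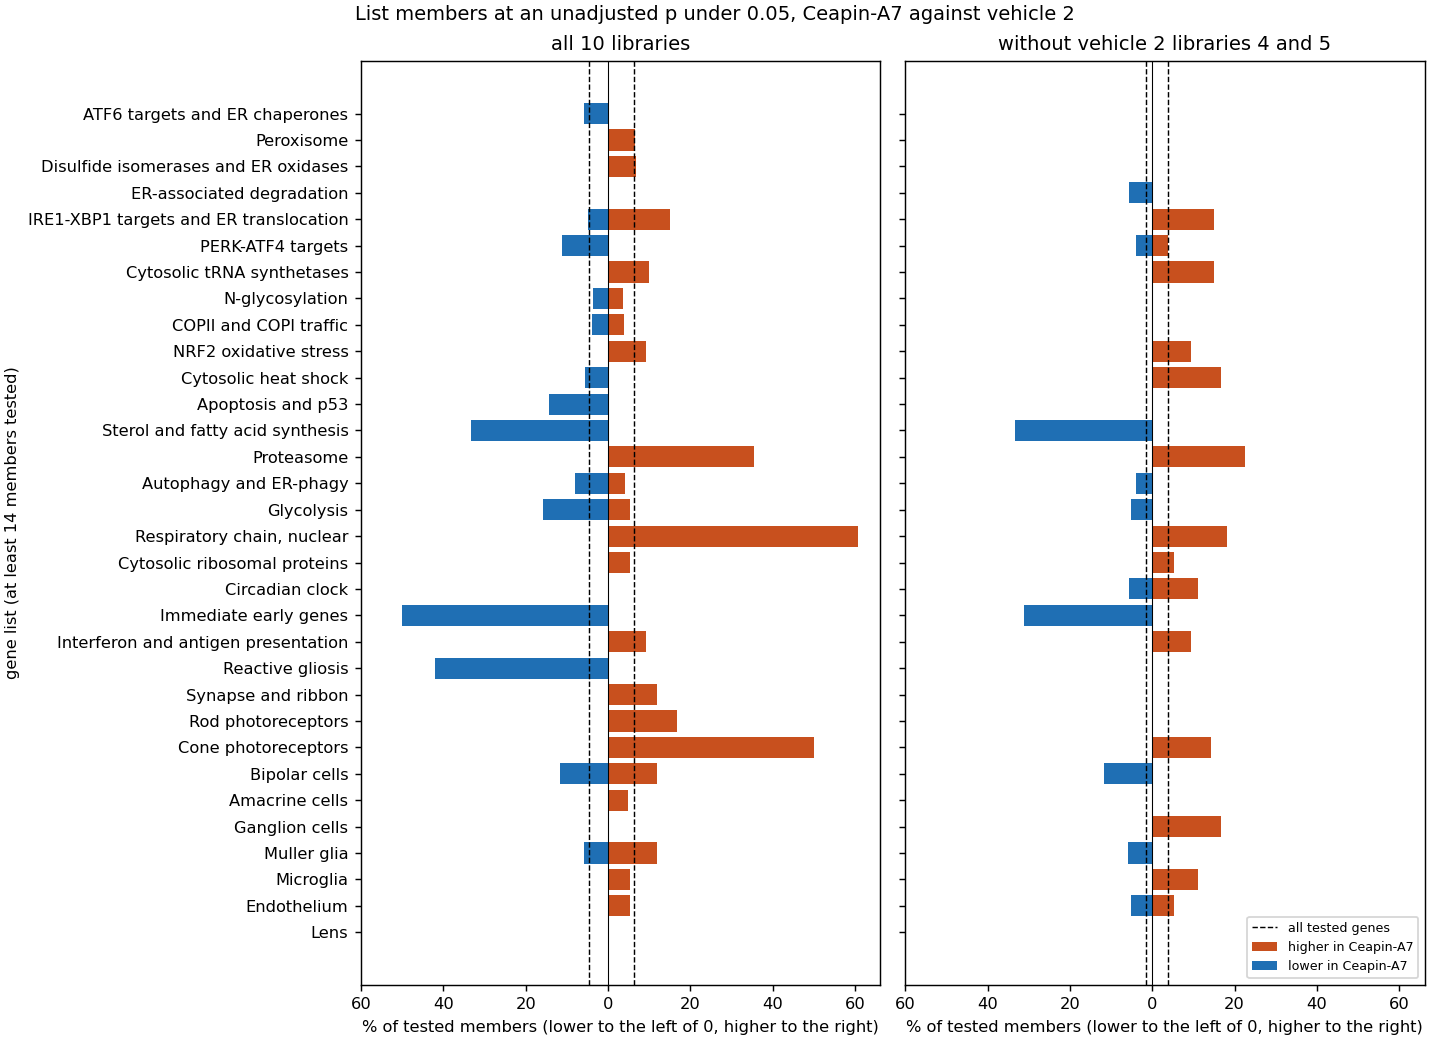
Percent of tested members with an unadjusted p under 0.05 in limma, for each gene list with at least 14 tested members, higher in Ceapin-A7 to the right and lower to the left, with all 10 libraries and without vehicle libraries 4 and 5. Dashed lines give the share among all tested genes, and the sterol list keeps 10 of 30 on the lower side in both panels while reactive gliosis goes from 8 of 19 to 0.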

How the data were processed

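Retinal RNA of 25 libraries was sequenced as stranded mRNA on DNBSEQ after removal of cornea and lens, per the labels' protocols. The authors deposited FPKM, a length-scaled and depth-scaled fragment level rounded to 2 decimals, each group in a table of its own. Tools listed in the submitters' processing notes were RSEM 1.2.18, HISAT2 2.0.4 and DESeq2 1.4.5, with build GRCm39 and no roles. FPKM relates each gene to all mapped fragments, so a few abundant genes can shift the rest. Columns were matched to libraries by name, leaving 0 of them unused for want of a match.

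Values were tested as log2(FPKM + 1), which understates the change of low genes, on genes that reached 1 FPKM in 5 or more of the 10 libraries compared. The limma package 3.58.1 (R 4.3.3) was fitted with an intensity trend on the 10 libraries of each comparison, two-sided, with Benjamini-Hochberg adjustment at 0.05, after tests on simulated data. Errors of differences are SE and intervals are 95%. Depth was estimated from low FPKM of single-transcript genes, taking 250 bases of each transcript as unable to start a fragment. This estimate is rough, and the fragments behind each gene were not recovered.

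Members and gene lists (48) were chosen with earlier results of these data known. Named were the 10 genes of smallest p in each direction, all ATF6 targets and sensors, Abcd3 and the member of highest mean level in each list. Any other list member named (such as Fos, Gfap, Chac1, Gnat1, Sc5d, Arr3, P2ry12, Mlana or Ckm) was chosen after its values were seen. A few genes that the rule names are not reported here. Alternatives were 2 pseudocounts, 2 filters, 2 scalings, 2 variance priors, fits with more groups, the other vehicle set, covariates, a replicate block and each library left out. Promoters were matched by symbol to a RefSeq table.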

Additional observations from a re-analysis of the deposited data

Results flagged for a closer look

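Single libraries lay apart from the other 4 of their group for 22 gene levels and 1 list mean, among 227 groups of 5 libraries looked at. The rule used marks about 1 group in 20 if values are independent and normally distributed. FPKM values need not be so, the genes share libraries, and some were chosen after their values were seen. The number is therefore not tested against chance. Ceapin-A7 library 3 was the high one for Mlana (81.9 FPKM against 8.21 to 24.1), Pmel (98.1 against 9.81 to 28.7), Dcn (21.0 against 1.67 to 2.93) and Xbp1 (49.5 against 42.2 to 44.2), and the low one for Ddit3 (39.3 against 43.2 to 44.5). Ceapin-A7 library 1 was low for Cox4i1 (528.8 FPKM) and Pmvk (31.3 FPKM) and high for Shisal2b (2.97 FPKM). Ceapin-A7 library 5 was low for 2310039H08Rik (11.2 FPKM) and library 4 high for Ckm (27.8 FPKM against 0.07 to 0.28). The mean of rod genes was highest in Ceapin-A7 library 2 (9.66 on the log2 scale against 9.55 to 9.58).

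In vehicle 2, library 1 was high for Pmel (26.1 FPKM), Dcn (2.89 FPKM) and Scd2 (132.5 FPKM against 119.4 to 122.9). Library 4 was high for Pmvk (63.5 FPKM against 40.4 to 43.1) and Eif2ak3 (14.5 FPKM), library 5 for Sqle (30.4 FPKM) and Derl3 (1.48 FPKM), and library 2 low for Srebf2 (40.9 FPKM). Tunicamycin library 1 was far above the other 4 for Hspa5 (1513 FPKM), Sdf2l1 (180.7 FPKM), Pdia6 (342.6 FPKM) and Ddit3 (343.2 FPKM).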

How the results depend on the processing

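Between Ceapin-A7 and vehicle 2, 0 genes passed under each of the 24 alternatives run with that vehicle set by limma, and the smallest adjusted p ranged from 0.0596, with all 5 groups in the fit, to 0.885. Genes with an unadjusted p under 0.05 ranged from 669 without vehicle libraries 4 and 5 to 2282 without vehicle library 2, and were 827 without vehicle library 4. With vehicle set 1, whose table lists other genes, in place of vehicle 2, 7550 of 12768 genes passed (4215 higher, 3335 lower), and the cause was not tested. Of 2179 values of single named genes under the other alternatives, 2173 moved by less than 1 SD between libraries. This is a loose limit, since a small difference can change sign within it. Alternatives that changed only the variance prior, added groups or added the replicate block leave the estimate as it was by construction.

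Between tunicamycin and Ceapin-A7, the 595 genes became 180 when Y-linked expression was a covariate and 127 to 1870 when single libraries were left out, the cause not being tested. Deviations of same-numbered Ceapin-A7 and vehicle libraries from their group means correlated at -0.29 to 0.48. Of the 5 numbers 1 correlated best with its own, at 0.48. These correlations cannot tell whether libraries share a mouse or a batch. With the replicate block 0 genes passed for Ceapin-A7 against vehicle 2, and 233 genes and 4 ATF6 targets for tunicamycin against Ceapin-A7. Depth limits precision for genes near 1 FPKM such as P2ry12 and Derl3.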
